A study of Rattus norvegicus with 6 samples.

Results

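Neurotransmitter receptor genes were followed in chromatin accessibility maps of rat pancreatic islets, taken at postnatal day 10 (P10) and in adults. The genes code for receptors of GABA, glycine, glutamate, acetylcholine, serotonin and dopamine, and were chosen by the start of their symbol (Gabr, Gabbr, Glra, Gria, Grik, Grin1 to Grin3, Grm with a digit, Chrn, Chrm, Htr with a digit, Drd), with Chrm3 left out. An accessible chromatin site (ACS) belonged to the set when such a gene was its nearest gene in the deposited annotation, which gave 670 of the 101603 distinct ACS, assigned to 75 genes in 11 families. All animals were Sprague-Dawley rats. The adult group had 3 libraries, each from 1 male of around 90 days, and the P10 group had 3 libraries, each from a mix of a few male and female pups, the 3 mixes coming from different litters. The sex and age of the adults come from the study's methods, since the growth text in their labels is that of the pups. Islet isolation differed as well: by the study's methods, pup pancreases were digested in collagenase by shaking, while in adults the enzyme was injected into the pancreatic duct. Age, sex, the pooling of animals and islet isolation therefore differed together between the groups and cannot be told apart. Whole islets were dissociated and not sorted, so that a change in the share of a cell type and a change within each cell cannot be told apart at any site. The measurement was ATAC-seq, in which the Tn5 transposase inserts adapters into open chromatin and the integrations in each site are counted.

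Fast receptors are ion channels built of several subunits, each coded by its own gene, and comprise the GABA-A, glycine, nicotinic acetylcholine, serotonin Htr3 and ionotropic glutamate (AMPA, kainate, NMDA) receptors. Slow receptors act through G proteins and comprise GABA-B, the metabotropic glutamate and muscarinic receptors, the other serotonin receptors and the dopamine receptors. In islets, β-cells make and release GABA and serotonin, α-cells release glutamate, and autonomic nerve endings release acetylcholine, and receptors for these transmitters modulate hormone secretion.

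The promoter letters of 4 GABA-A, nicotinic and serotonin receptor genes are shown because the accessibility of these promoters carried the clearest result near gene starts. The sites at Chrna7, Htr7 and Gabrq passed the test as less accessible in adults in every fit that left out 1 library. That of Gabra4 was the receptor promoter site with the most counts and did not pass the test. Each sequence is the 250 bases before the gene start in the RefSeq table (build GRCr8), 5′ to 3′ on the gene's strand, with the CpG dinucleotides in capitals. The sites themselves were mapped on build Rn5, so these windows show the gene's promoter and not the exact bounds of a site.
Chrna7, chr1:126249130-126249379, minus strand: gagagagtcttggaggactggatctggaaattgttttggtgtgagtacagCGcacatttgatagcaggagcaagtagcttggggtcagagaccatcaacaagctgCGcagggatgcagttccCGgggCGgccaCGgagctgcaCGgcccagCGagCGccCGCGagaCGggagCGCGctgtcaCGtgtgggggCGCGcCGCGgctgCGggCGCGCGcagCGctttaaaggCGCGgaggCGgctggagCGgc
Htr7, chr1:243173049-243173298, minus strand: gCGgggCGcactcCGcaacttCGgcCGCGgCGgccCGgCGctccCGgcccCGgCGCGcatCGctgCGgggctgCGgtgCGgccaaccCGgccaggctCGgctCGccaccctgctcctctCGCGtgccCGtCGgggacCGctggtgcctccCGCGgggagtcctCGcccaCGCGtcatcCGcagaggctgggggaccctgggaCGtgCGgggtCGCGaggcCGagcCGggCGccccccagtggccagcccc
Gabrq, chrX:155738186-155738435, plus strand: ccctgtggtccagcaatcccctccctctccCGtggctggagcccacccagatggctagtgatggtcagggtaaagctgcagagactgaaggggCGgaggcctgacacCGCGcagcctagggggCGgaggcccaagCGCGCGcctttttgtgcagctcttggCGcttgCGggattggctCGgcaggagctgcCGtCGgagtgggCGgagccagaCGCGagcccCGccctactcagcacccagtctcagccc
Gabra4, chr14:36944497-36944746, plus strand: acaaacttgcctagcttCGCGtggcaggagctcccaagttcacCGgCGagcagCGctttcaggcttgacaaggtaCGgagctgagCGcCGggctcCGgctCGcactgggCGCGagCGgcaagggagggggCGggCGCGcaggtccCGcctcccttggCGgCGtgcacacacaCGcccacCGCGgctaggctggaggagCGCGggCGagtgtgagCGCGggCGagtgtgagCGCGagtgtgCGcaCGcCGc
The Chrna7 window held 27 CpGs, the Htr7 window 38, the Gabrq window 17 and the Gabra4 window 33, beside a median of 5 over all 33469 promoters of the table. Of the 75 receptor genes, 54 were matched by gene ID. The 28 matched genes with a site within 1000 bp of their start had a median of 18 CpGs and 66.0% G+C, and the 26 without one had 6 CpGs and 56.0% G+C. In the 300-base windows of the table, 250 before and 50 after the start, the 7 letters CAACAGG, a core that the repressor SCRT1 can bind, occurred on either strand in 4 of the 54 receptor promoters (7.41%), those of Chrna10, Chrnb1, Chrnd and Htr5b, and in 4.33% of all promoters. The cAMP response element TGACGTCA occurred in 0 of the 54 and in 1.83% of all. The RE1 core, the central letters of the element bound by the repressor REST, occurred in 0 of the 54 and in 0.0359% of all. A match or its absence describes only the letters of these windows.

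Receptor genes had many sites, mostly far from their start. The median receptor gene had 7 sites, against 3 for all 14776 nearest genes. Of the 670 sites, 45 (6.72%) were in the TSS class (within 1000 bp of the gene start), 61 were PROXIMAL (to 10000 bp) and 564 (84.2%) were DISTAL, where all sites had 10.9% in the TSS class and 79.3% in the DISTAL class. The median distance to the start was 107 kb, against 61.1 kb for all sites, and 101 receptor sites (15.1%) were more than 500 kb away, against 9.23% of all. The annotation placed 255 sites upstream of their gene, 188 inside it, 197 downstream and 30 across the start. A TSS-class site was found for 40 of the 75 genes (53.3%), against 66.4% of all nearest genes. The genes Gabrg3 with 75 sites, Htr7 with 31 and Gria3 with 30 together held 136 of the 670 sites, and a distant site is tied to its gene by proximity alone.

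Sites of receptor genes were weaker than most. Their median was 39.2 integrations per library, against 64.8 over all sites, and the TSS-class sites had a median of 89.7 against 236. Per kilobase of site, the median accessibility of the receptor TSS class was 10.7 CPM (counts per 1000000 integrations in sites, scaled by TMM) and that of all TSS-class sites 24.4 CPM. The libraries held between 7916919 and 21168463 integrations in sites, with the 3 adult libraries between 7916919 and 11903909 and the P10 libraries between 13491534 and 21168463. Receptor sites took between 0.326% and 0.331% of the integrations in adults and between 0.318% and 0.351% at P10 (exact two-sided permutation test, p = 0.60, the smallest possible with 3 against 3 being 0.10).

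Accessibility between P10 and adult islets was compared by the edgeR quasi-likelihood test over all sites, and a site was called at the limits of the study (p under 0.05 and FDR, the Benjamini-Hochberg adjusted p over all sites, under 0.2). Fold changes are given as log2 of adult over P10 ± SE, from 3 libraries per age. Among the 670 receptor sites, 57 (8.51%) were Up (higher in adults) and 50 (7.46%) Down (lower in adults), against 12.3% of all sites called Up and 6.63% called Down. The median log2 fold change, adult over P10, was -0.04 over receptor sites and -0.01 over all sites. No adult library fell below a P10 library at 64 receptor sites (9.55%, background 13.8%) and none rose above one at 71 (10.6%, background 10.9%). The shares moved with the counts of a site. Of the 268 receptor sites with a mean of at least 50 integrations, 17.5% were Up, against 17.3% of all such sites, and 9.70% were Down, against 6.17%. Of the 402 weaker receptor sites, 2.49% were Up and 5.97% Down, against 4.85% and 7.32% of all sites below that mean.

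**Figure D1:**
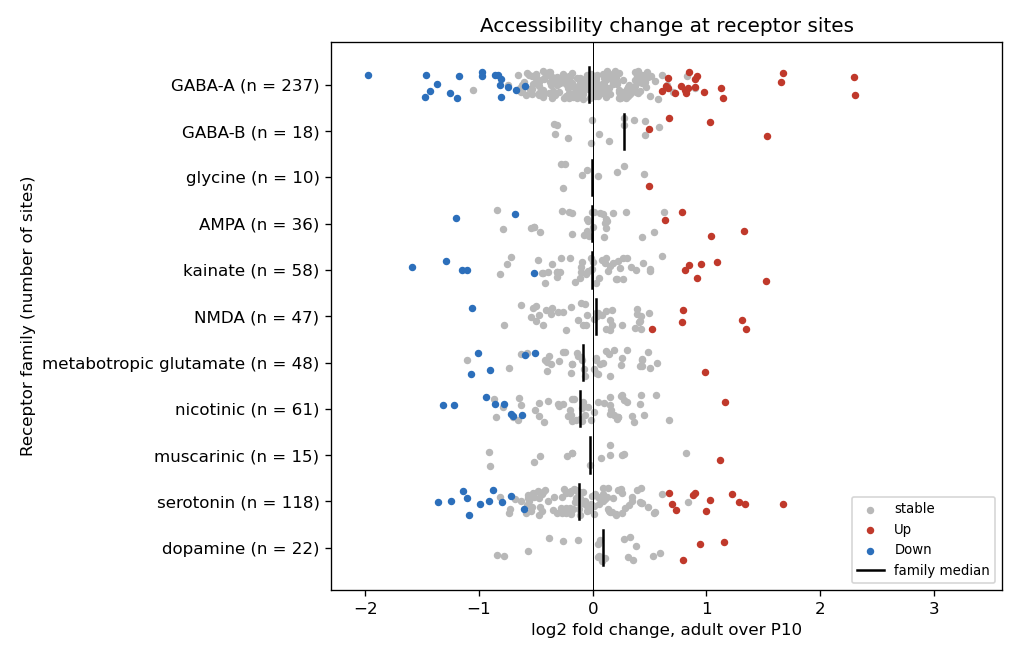
Log2 fold change (adult over P10, horizontal axis) of each of the 670 receptor sites, by receptor family (vertical axis, with the number of sites). Red and blue points were called Up and Down, grey points were not called, and black bars are family medians; the 57 Up and 50 Down sites lie on both sides of medians that stay between -0.12 and 0.28.

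The numbers of calls rested partly on single libraries. Without P10 replicate 2, 37 receptor sites were Up and 23 Down, and without P10 replicate 3, 41 were Up and 26 Down. Calls over all sites also fell, from 12504 Up and 6738 Down to 7973 and 3285 without P10 replicate 2, and to 8908 and 4232 without P10 replicate 3. In total, 29 of the 57 Up and 14 of the 50 Down calls were made in all 6 fits that left out 1 library. The same share was not counted over all sites. The balance of the directions depended on scaling. Under column sums without TMM, 48 receptor sites were Up and 70 Down, and 10447 of all sites were Up and 10732 Down, where TMM gave 12504 and 6738. Among all sites 1062 were Up and 61663 Down, and among receptor sites 6 and 380, when total reads set the library sizes, a scaling that moved the median over all sites to -0.84 and that over receptor sites to -0.86. Of the 75 genes, 18 (24.0%) had only Up calls, 12 (16.0%) only Down calls, 15 (20.0%) had both and 30 (40.0%) had none, against 20.7%, 13.8%, 14.4% and 51.1% of all nearest genes. The latter had a median of 3 sites each, against 7.

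Marker genes of islet and other cell types were counted the same way, and 6 of the 9 β-cell and 4 of the 5 α-cell markers had a TSS-class site. Of all sites, 12.3% were Up and 6.63% Down. At sites of β-cell markers, 14 of 88 were Up (15.9%) and 11 Down (12.5%), and at α-cell markers 22 of 103 were Up (21.4%) and 3 Down (2.91%). The counts were 1 Up and 3 Down of 10 for δ and PP cells (10% and 30%), 5 and 5 of 60 for acinar cells (8.33% each), 4 and 7 of 41 for duct cells (9.76% and 17.1%) and 11 and 5 of 73 for endothelial cells (15.1% and 6.85%). They were 7 and 5 of 62 for mesenchymal cells (11.3% and 8.06%), 0 and 0 of 5 for Schwann cells, 0 and 2 of 18 for peripheral neurons (0% and 11.1%) and 1 and 1 of 13 for immune cells (7.69% each). None of the 7 neuron and 7 immune markers had a TSS-class site, and 1 of the 6 Schwann cell markers had one. Summed over the TSS-class sites of 4 duct markers, the adult libraries held 23.5 to 26.4 CPM and the P10 libraries 36.4 to 42.5 CPM, without overlap and with 3 of the 4 sites Down, and over those of δ and PP markers 11.6 to 13.7 CPM against 17.6 to 25.6 CPM. The β-cell sums were 165 to 223 CPM in adults and 203 to 330 CPM at P10, the α-cell sums 66.9 to 86.7 and 74.0 to 87.0 CPM, the acinar sums 18.4 to 27.1 and 24.2 to 29.3 CPM, the endothelial sums 25.8 to 34.3 and 32.2 to 40.0 CPM, the mesenchymal sums 15.5 to 22.3 and 20.4 to 24.9 CPM and the Schwann sums 7.99 to 15.9 and 12.6 to 18.5 CPM. The part of these shifts in the results for receptor sites was not tested.

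Calls were then counted by position class. In the TSS class, 0 of 45 receptor sites were Up and 11 (24.4%) Down, where 2.73% of all TSS-class sites were Up and 7.87% Down. No receptor TSS-class site was higher in adults at an unadjusted p under 0.05, and DESeq2 and limma voom also called 0 Up, with 8 and 9 Down. In the DISTAL class, 53 of 564 (9.40%) were Up and 35 (6.21%) Down, against 13.8% and 6.45% of all, and in the PROXIMAL class 4 of 61 (6.56%) were Up and 4 Down, against 11.2% and 6.71%.

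**Figure D2:**
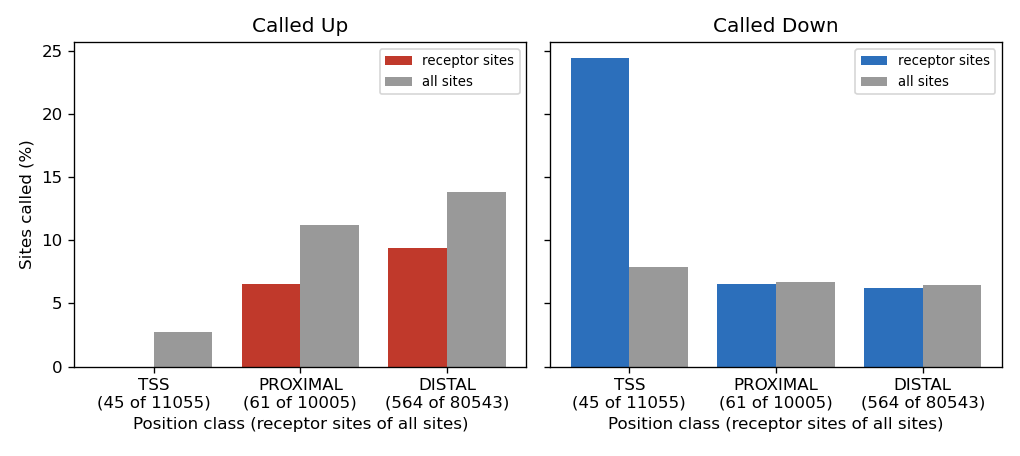
Percentage of sites called Up (left) and Down (right) in each position class (horizontal axis, with the number of receptor sites of all sites), for receptor sites (coloured bars) and all sites (grey bars). In the TSS class the blue bar for Down stands at 24.4% beside 7.87% for all sites, and 0 receptor sites were Up.

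The 11 TSS-class sites called Down belonged to 10 genes, among them the GABA-A subunit genes Gabrb2, Gabre (with 2 sites) and Gabrq, the serotonin receptor genes Htr1b, Htr2c and Htr7, and Chrna7, Grik1 and Grm3. Promoter sites as a class had a smaller share of the integrations in adults, between 24.8% and 26.4% against 27.4% to 28.6% at P10. Receptor TSS-class sites took between 0.0397% and 0.0430% of the integrations in adults and between 0.0492% and 0.0534% at P10, without overlap (exact two-sided permutation test, p = 0.10, the smallest possible). Of the integrations in all promoter sites, receptor promoters took 0.15% to 0.173% in adults and 0.172% to 0.195% at P10, 2 ranges that overlapped slightly (exact permutation p = 0.20). The promoter sums of duct, δ and PP cell markers given above were also lower in adults without overlap, and their part in this result was not tested.

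At the start of Chrna7, which codes for the α7 nicotinic subunit that forms calcium-permeable channels on its own, the site chr1:125157564-125158584 (Rn5) held 27, 27.8 and 22.9 CPM in the adult libraries and 38.7, 37.9 and 43.2 CPM at P10 (log2 fold change -0.62 ± 0.17, adjusted p = 0.0175). At the start of Gabrq, the θ subunit of GABA-A receptors, chr1:148582768-148583331 held 13.4, 14.2 and 15.2 CPM in the adult libraries and 21.3, 22.6 and 24.2 CPM at P10 (log2 fold change -0.67 ± 0.19, adjusted p = 0.0258). Htr7, a serotonin receptor that raises cAMP, had 6.60, 11.2 and 10.1 CPM in the adult libraries and 11.9, 17.7 and 18.9 CPM at P10 at chr1:261879225-261880170 (log2 fold change -0.80 ± 0.24, adjusted p = 0.0343). All 3 P10 libraries lay above all 3 adult libraries at each of the 3 promoters, closest at Htr7, and these were the 3 of the 11 that were called Down in all 6 fits without 1 library.

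The ε subunit gene Gabre had 2 neighbouring sites. The site across the start, chr1:147963175-147963949, held 11.8, 5.94 and 14.2 CPM in the adult libraries and 12.9, 20.8 and 24.0 CPM at P10 (log2 fold change -0.86 ± 0.26, adjusted p = 0.0379). The other, chr1:147962883-147963158, held 2.17, 1.95 and 1.80 CPM in the adult libraries and 3.53, 2.07 and 4.81 CPM at P10 (log2 fold change -0.82 ± 0.36, adjusted p = 0.18). Values of the groups overlapped at both, 1 P10 library lying among the adult libraries. Of the 6 fits that left out 1 library, 5 called the site across the start and 1 called the other. DESeq2, limma voom and cyclic loess offsets did not call that other site. At the start of Htr1b, a serotonin receptor that lowers cAMP, chr8:88668534-88669349 held 8.58, 11.4 and 13.1 CPM in the adult libraries and 13.6, 19.3 and 17.3 CPM at P10 (log2 fold change -0.60 ± 0.22, adjusted p = 0.0959). At the start of Grm3, a metabotropic glutamate receptor that lowers cAMP, chr4:21250781-21251625 held 6.33, 7.30 and 7.99 CPM in the adult libraries and 9.25, 12.1 and 11.3 CPM at P10 (log2 fold change -0.59 ± 0.24, adjusted p = 0.13). Neither overlapped between the ages, though each was called in only 3 of the 6 fits that left out 1 library.

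Another 3 promoters were weaker. Gabrb2, the β2 subunit, had 4.34, 2.92 and 2.19 CPM in the adult libraries and 4.37, 6.70 and 5.76 CPM at P10 at chr10:27817769-27818403 (log2 fold change -0.80 ± 0.31, adjusted p = 0.114), with the highest adult value just below the lowest P10 value. Htr2c, a serotonin receptor coupled to calcium release, had 1.54, 0.876 and 1.55 CPM in the adult libraries and 2.14, 2.85 and 3.54 CPM at P10 at chrX:118226169-118226450 (log2 fold change -1.11 ± 0.39, adjusted p = 0.0757). Grik1, a kainate receptor subunit, had 0.542, 0.974 and 0.129 CPM in the adult libraries and 1.44, 1.21 and 1.59 CPM at P10 at chr11:31828111-31828317 (log2 fold change -1.29 ± 0.50, adjusted p = 0.117), a mean of 15.8 integrations per library. The groups did not overlap at any of the 3.

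**Figure D3:**
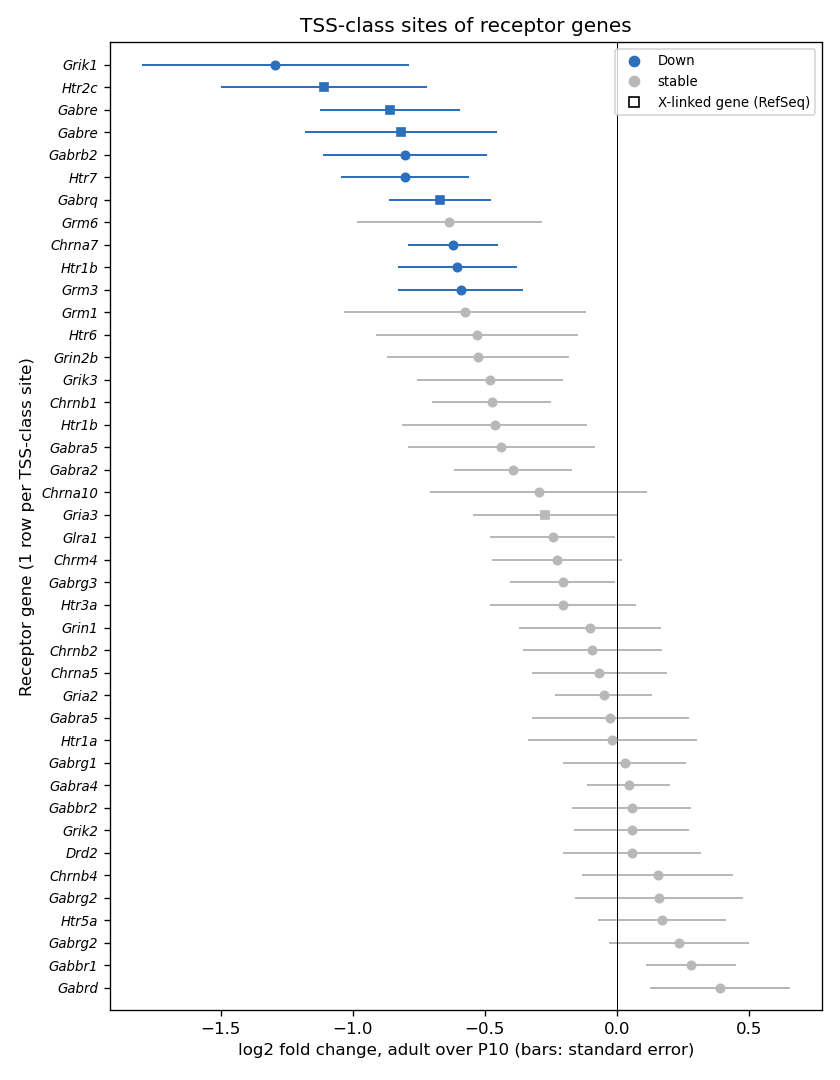
Log2 fold change (adult over P10, horizontal axis) with its standard error at 42 of the 45 TSS-class sites of receptor genes, 1 row per site (vertical axis). The 10 of these called Down are blue and lie between -1.29 and -0.59, grey sites were not called, squares mark X-linked genes, and the highest value is 0.39 at Gabrd.

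Of the 11 sites, 4 belonged to X-linked genes. RefSeq (GRCr8) places Gabra3, Gabre and Gabrq on chromosome X, while the deposited Rn5 annotation lists them on chromosome 1; Gria3, Htr2c and Glra4 are on X in the RefSeq table. With these genes left out, 7 of 40 TSS-class sites (17.5%) were Down and 0 Up, and over all positions 53 of 606 sites were Up and 41 Down. Of all TSS-class sites of X-linked genes, 9.49% were Down. The P10 libraries held pups of both sexes and the adults were male, so that sex and age cannot be told apart at these genes. The share of Down calls among receptor promoters also rested on P10 replicate 3: without it 4 of 45 (8.89%) were Down, against 6.49% of all TSS-class sites, and without adult replicate 4 it was 7 of 45 (15.6%), against 8.01%. Without P10 replicate 2 it was also 7 of 45, against 3.19% of all TSS-class sites. With total reads as library sizes 91.1% were Down, against 90.2% of all. Under column sums 13 (28.9%) were Down, against 17.2% of all TSS-class sites, and with cyclic loess offsets 10 (22.2%), against 17.9%.

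Promoters of receptor genes known from islet physiology were listed whatever their change. The site at the start of Gabbr1, the ligand-binding subunit of GABA-B, held 40.7, 41.7 and 33.5 CPM in the adult libraries and 36.3, 30.2 and 29.0 CPM at P10 (chr20:4024794-4025807, log2 fold change 0.28 ± 0.17, adjusted p = 0.373). That of Gria2, the AMPA subunit that limits calcium entry, held 27.2, 22.1 and 25.7 CPM in the adult libraries and 21.6, 28.7 and 27.3 CPM at P10 (chr2:199112825-199113380, log2 fold change -0.05 ± 0.18, adjusted p = 0.923). Both were among the better covered promoters, and the values of the groups overlapped. At the D2 dopamine receptor gene Drd2 the log2 fold change was 0.06 ± 0.26 (chr8:52297946-52298512, adjusted p = 0.941). Gabbr2, the other GABA-B subunit gene, had 0.06 ± 0.22 (chr5:67141992-67142989, adjusted p = 0.932), and Grin1, the obligatory NMDA subunit, -0.10 ± 0.27 (chr3:2515535-2516206, adjusted p = 0.886). The values of Drd2 and Gabbr2 fell below 0 under column sums and cyclic loess offsets, and these 2 and Gabbr1 did so with total reads as library sizes. The nicotinic genes Chrnb2 and Chrna5 had -0.09 ± 0.26 (chr2:208519168-208519795, adjusted p = 0.895) and -0.07 ± 0.26 (chr8:58143668-58144177, adjusted p = 0.926). The muscarinic gene Chrm4 had -0.23 ± 0.25 (chr3:87531374-87532003, adjusted p = 0.671), the serotonin-gated channel gene Htr3a -0.20 ± 0.28 (chr8:51815884-51816440, adjusted p = 0.75) and the glycine receptor gene Glra1 -0.24 ± 0.23 (chr10:40783683-40784710, adjusted p = 0.62). None of these 10 was called, although the adult values at Glra1 all lay below those at P10. Their standard errors were between 0.17 and 0.28. Among all receptor sites the smallest log2 fold changes called were 0.50 for Up and -0.51 for Down, so that an uncalled promoter may still have changed. Grm4 and Htr1d of the same list had no TSS-class site, and no site was assigned to Grik5 or Htr2b.

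In the families below, sites named for the smallest p were taken only from called sites whose groups did not overlap. The lack of overlap stated for them was thus fixed by the choice and adds no support. GABA-A receptors are chloride channels, and their 18 genes had 237 sites, of which 20 (8.44%) were Up and 18 (7.59%) Down, against 12.3% and 6.63% of all sites. A site inside Gabrg3, 293 kb from its start (chr1:113529617-113530404), held 41.5, 26.2 and 32.0 CPM in the adult libraries and 17.2, 12.6 and 15.2 CPM at P10 (log2 fold change 1.15 ± 0.20, adjusted p = 0.000325), without overlap. Around Gabrq, sites 4.82 and 49.0 kb upstream were Down together with the promoter, at log2 fold changes of -1.25 ± 0.38 (adjusted p = 0.0352) and -1.47 ± 0.44 (adjusted p = 0.0303). These 2 sites were chosen after their values were seen. Among all receptor sites the highest mean count, 847 integrations, was at a site 173 kb upstream of Gabrp, the π subunit (chr10:18564394-18565061). It held 74.2, 54.6 and 60.2 CPM in the adult libraries and 77.7, 49.4 and 46.0 CPM at P10, and the groups overlapped (log2 fold change 0.13 ± 0.18, adjusted p = 0.767).

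Gabrg3, which codes for the γ3 subunit and is a very long gene, had 7 Up and 8 Down of 75 sites, mixed along the gene and beyond its end. Inside the gene 5 of 23 sites were Up (21.7%) and 4 Down (17.4%). Downstream, all beyond 500 kb from the start, 2 of 50 were Up (4%) and 4 Down (8%). Of all sites, 12.3% were Up and 6.63% Down. The 3 Down sites with the smallest p were 2 inside the gene, 140 kb and 133 kb from the start, and 1 downstream at 957 kb. At chr1:113682197-113682743 there were 3.07, 2.92 and 3.35 CPM in the adult libraries and 8.23, 7.63 and 8.30 CPM at P10 (log2 fold change -1.37 ± 0.27, adjusted p = 0.0013). The second, chr1:113689427-113689892, held 6.14, 4.67 and 1.55 CPM in the adult libraries and 8.37, 10.6 and 10.2 CPM at P10 (log2 fold change -1.20 ± 0.31, adjusted p = 0.0136). The third, chr1:112865163-112865961, held 5.69, 6.91 and 3.87 CPM in the adult libraries and 8.04, 12.6 and 12.2 CPM at P10 (log2 fold change -0.98 ± 0.27, adjusted p = 0.0181). All adult libraries lay below all P10 libraries at the 3 sites, as the rule that chose them required. Further into the gene came a weak Up site at 162 kb, a Down site at 185 kb, a run of 4 Up sites between 235 and 293 kb, and a last Down site at 654 kb. On summed counts Gabrg3 had a log2 fold change of 0.00 ± 0.14, with a promoter at -0.21 ± 0.20.

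**Figure D4:**
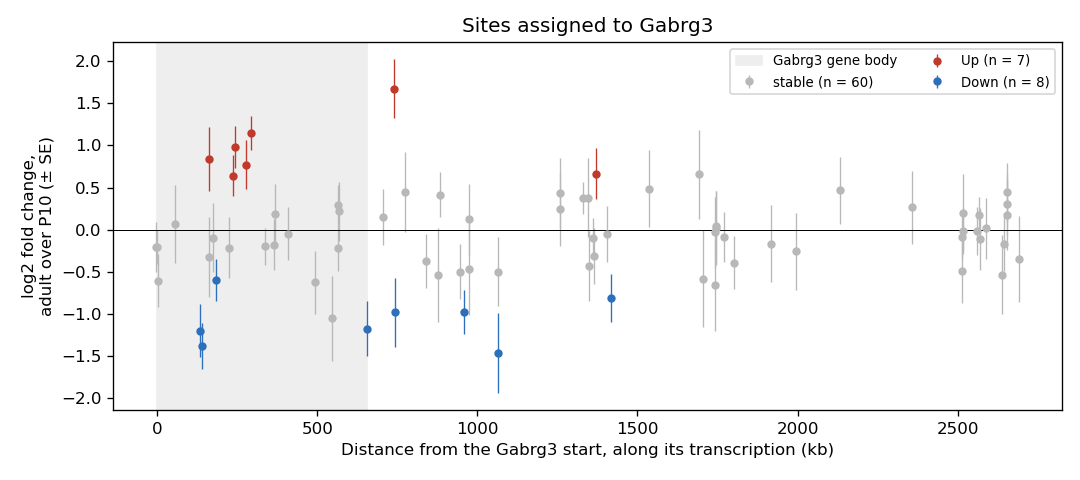
Log2 fold change (adult over P10, vertical axis, with its standard error) of the 75 sites assigned to Gabrg3 against their distance from the gene start along its transcription (horizontal axis, kb); the grey band is the gene body. The 7 Up and 8 Down sites are mixed inside the gene and to 1418 kb, with none called beyond.

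GABA-B receptors couple to G proteins and lower secretion. Their 2 genes had 18 sites, 4 of them Up (22.2%, against 12.3% of all sites), all at Gabbr2, and 0 Down (0 lower in adults at an unadjusted p under 0.05, and 0 Down by DESeq2 and limma voom). Inside Gabbr2, 58.6 kb from the start, chr5:67083594-67083871 held 6.33, 7.01 and 7.09 CPM in the adult libraries and 2.70, 2.57 and 1.80 CPM at P10 (log2 fold change 1.53 ± 0.29, adjusted p = 0.000925). At 17.2 kb upstream, chr5:67159368-67159599 held 4.25, 6.43 and 3.61 CPM in the adult libraries and 2.14, 2.35 and 2.54 CPM at P10 (log2 fold change 1.03 ± 0.32, adjusted p = 0.0401). Both were without overlap and kept their call whichever library was left out, while the other 2 Up sites overlapped between the ages. The glycine receptor genes Glra1 and Glra4, also chloride channels, had 10 sites with 1 Up (10.0%) and 0 Down (0 lower at an unadjusted p under 0.05, and 0 Down by DESeq2 and limma voom). The Up site lay 26.5 kb upstream of Glra1 (chr10:40810858-40811496), with 13.6, 12.1 and 11.0 CPM in the adult libraries and 7.90, 9.41 and 8.78 CPM at P10 (log2 fold change 0.50 ± 0.22, adjusted p = 0.192), and was called in none of the 6 fits without 1 library.

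AMPA receptors carry fast glutamate currents. Gria2 and Gria3 had 36 sites, 4 Up (11.1%) and 2 Down (5.56%), against 12.3% and 6.63% of all sites. The Up site with the smallest p lay inside Gria3, 8.20 kb from the start (chrX:127664780-127665043), with 9.22, 8.76 and 6.96 CPM in the adult libraries and 3.95, 3.00 and 2.96 CPM at P10 (log2 fold change 1.33 ± 0.27, adjusted p = 0.00176). A Down site lay further into the same gene, 72.2 kb from the start (chrX:127728810-127729169), with 1.45, 1.46 and 2.06 CPM in the adult libraries and 3.39, 4.28 and 3.70 CPM at P10 (log2 fold change -1.20 ± 0.35, adjusted p = 0.0266). The groups were apart at both, in opposite directions within 1 gene, and Gria3 is X-linked. A pair of Up sites stood far upstream of Gria3, at 1133 kb (chrX:126523349-126523582, log2 fold change 1.04 ± 0.32, adjusted p = 0.0356) and 503 kb (chrX:127153618-127154295, log2 fold change 0.63 ± 0.23, adjusted p = 0.0962), and 1 Down site 34.2 kb upstream of Gria2 (chr2:199147220-199147596, log2 fold change -0.69 ± 0.30, adjusted p = 0.17).

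Kainate receptors, with 4 genes and 58 sites, had 6 Up (10.3%, all sites 12.3%) and 5 Down (8.62%, all sites 6.63%). Upstream of Grik2 by 153 kb, chr20:56275013-56275415 held 8.68, 8.86 and 9.15 CPM in the adult libraries and 3.16, 2.43 and 3.59 CPM at P10 (log2 fold change 1.53 ± 0.27, adjusted p = 0.000387). Inside Grik1, 70.0 kb from the start, chr11:31758343-31759054 held 16.8, 15.1 and 17.3 CPM in the adult libraries and 7.20, 6.78 and 8.93 CPM at P10 (log2 fold change 1.1 ± 0.22, adjusted p = 0.00143). Adult values all exceeded P10 values at both. The start of Grik1 was Down, on a mean of 15.8 integrations and in 3 of the 6 fits without 1 library. limma voom called that start site too, while DESeq2 and the fit with cyclic loess offsets did not. Another 3 called sites stood beyond the end of Grik2, between 1577 kb and 1863 kb from its start. The nearest of them, chr20:54545565-54546201, was Up (log2 fold change 0.92 ± 0.23, adjusted p = 0.00931), and the other 2 were Down: chr20:54476920-54477155 (log2 fold change -1.59 ± 0.51, adjusted p = 0.0486) and chr20:54259291-54259716 (log2 fold change -1.15 ± 0.27, adjusted p = 0.00658). The last Down site named, chr20:56079166-56079711, lay inside Grik2 at 43.1 kb (log2 fold change -0.52 ± 0.19, adjusted p = 0.0999).

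NMDA receptors need glutamate with glycine or D-serine. Their 6 genes had 47 sites with 5 Up (10.6%) and 1 Down (2.13%), beside 12.3% and 6.63% of all sites. Of the Up sites, 4 belonged to Grin3a, a subunit that lowers calcium entry, of 16 sites, all upstream of the gene. Upstream of Grin3a by 63.8 kb, chr5:69628448-69628854 held 15.2, 9.93 and 12.2 CPM in the adult libraries and 5.39, 4.28 and 4.97 CPM at P10 (log2 fold change 1.35 ± 0.25, adjusted p = 0.000593). At 65.4 kb, chr5:69630096-69630369 held 5.51, 6.82 and 5.93 CPM in the adult libraries and 1.63, 3.00 and 2.80 CPM at P10 (log2 fold change 1.31 ± 0.31, adjusted p = 0.00612). The adult values were above all P10 values at these neighbouring sites. Another, 626 kb upstream (chr5:70191188-70191661), was Up at 0.79 ± 0.26 on the log2 scale (adjusted p = 0.0546). The Down site lay inside Grin2b, 332 kb from the start (chr4:233927008-233927290, log2 fold change -1.06 ± 0.39, adjusted p = 0.0915). Grin2a, with 14 sites, had none called, and its site counts summed to a log2 fold change of -0.06 ± 0.12.

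Metabotropic glutamate receptors had 1 Up (2.08%) and 5 Down (10.4%) of 48 sites in 7 genes, where all sites had 12.3% and 6.63%. Besides the Grm3 promoter, a site 33.0 kb upstream of Grm5 (chr1:157495725-157495995) held 0.633, 1.17 and 1.16 CPM in the adult libraries and 1.39, 1.85 and 2.91 CPM at P10 (log2 fold change -1.07 ± 0.44, adjusted p = 0.14). A site inside Grm6, 11.7 kb from the start (chr10:36128655-36128911), held 1.54, 2.05 and 1.03 CPM in the adult libraries and 2.97, 2.78 and 3.70 CPM at P10 (log2 fold change -1.01 ± 0.37, adjusted p = 0.0868). Adult values were low at both without overlap, on means of 23.2 and 36.5 integrations. The Up site, 187 kb upstream of Grm7, overlapped between the groups.

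Nicotinic receptors are cation channels opened by acetylcholine. Their 13 genes had 61 sites with 1 Up (1.64%, against 12.3% of all sites) and 8 Down (13.1%, against 6.63%), 4 of the Down sites at Chrna7. Beside its promoter, chr1:125137707-125137949, 20.4 kb inside Chrna7, held 2.89, 3.02 and 2.06 CPM in the adult libraries and 3.81, 5.56 and 5.34 CPM at P10 (log2 fold change -0.86 ± 0.31, adjusted p = 0.0875), without overlap. Chrna10, an α subunit gene, carried the Up site and a Down site next to each other. The Down site, 27.2 kb upstream of the gene (chr1:173427018-173427249), held 2.08, 1.46 and 2.06 CPM in the adult libraries and 3.72, 6.13 and 4.23 CPM at P10 (log2 fold change -1.32 ± 0.34, adjusted p = 0.0121). The Up site, 33.5 kb upstream (chr1:173433313-173433736), held 8.40, 7.21 and 6.96 CPM in the adult libraries and 4.37, 2.78 and 2.85 CPM at P10 (log2 fold change 1.16 ± 0.28, adjusted p = 0.00751). Each was apart between the ages, in opposite directions, and both calls held whichever library was left out.

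Muscarinic receptors mediate the action of the vagus nerve on islets. The 4 genes other than Chrm3 had 15 sites with 1 Up (6.67%, all sites 12.3%) and 0 Down (1 lower in adults at an unadjusted p under 0.05, and 0 Down by DESeq2 and limma voom). The Up site lay 254 kb upstream of Chrm2 (chr4:63549397-63549875), with 18.0, 19.5 and 24.8 CPM in the adult libraries and 9.81, 8.63 and 9.99 CPM at P10 (log2 fold change 1.12 ± 0.21, adjusted p = 0.00073). Every adult library was well above every P10 library, and the call held whichever library was left out.

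Serotonin receptors had 11 Up and 11 Down of 118 sites in 13 genes, 9.32% each, against 12.3% and 6.63% of all sites. Htr1f, which lowers cAMP, had 3 Up of 20 sites, all upstream. At 236 kb, chr11:2197337-2197717 held 8.49, 8.18 and 8.38 CPM in the adult libraries and 2.18, 3.07 and 2.64 CPM at P10 (log2 fold change 1.67 ± 0.28, adjusted p = 0.000185). At 91.3 kb, chr11:2052947-2053453 held 36.8, 32.3 and 35.7 CPM in the adult libraries and 17.8, 15.4 and 19.3 CPM at P10 (log2 fold change 1.0 ± 0.18, adjusted p = 0.000454). Adult libraries were tightly grouped above the P10 libraries at both. Inside Htr4, which raises cAMP, chr18:56956844-56957303 held 13.1, 9.45 and 13 CPM in the adult libraries and 4.88, 6.78 and 5.82 CPM at P10 (log2 fold change 1.03 ± 0.25, adjusted p = 0.00669), without overlap. Around Htr1b the promoter, a site 2.67 kb upstream and a site beyond its end, 291 kb from the start, were Down. The upstream site chr8:88670652-88670983 held 2.35, 3.02 and 2.84 CPM in the adult libraries and 4.42, 7.99 and 5.18 CPM at P10 (log2 fold change -1.09 ± 0.31, adjusted p = 0.0256). The downstream site chr8:88377197-88377419 was at -1.36 ± 0.46 on the log2 scale (adjusted p = 0.0652) on a mean of 21.0 integrations. A downstream site 7.43 kb from the start was Up, at 0.70 ± 0.27 (adjusted p = 0.122), so that the direction was not the same throughout the locus. At Htr7, with 31 sites, the promoter was the 1 Down site and 1 site downstream was Up.

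Dopamine receptors had 3 Up (13.6%, all sites 12.3%) and 0 Down of 22 sites (0 lower in adults at an unadjusted p under 0.05, and 0 Down by DESeq2 and limma voom). The Drd3 site, 51.7 kb upstream (chr11:61059125-61059971), held 19.7, 20.0 and 13.8 CPM in the adult libraries and 12, 8.06 and 7.61 CPM at P10 (log2 fold change 0.95 ± 0.23, adjusted p = 0.00822). The Drd1 site, downstream at 269 kb from the start (chr17:13481153-13481376), held 5.42, 3.90 and 4.0 CPM in the adult libraries and 2.56, 0.999 and 2.33 CPM at P10 (log2 fold change 1.15 ± 0.35, adjusted p = 0.0357). Both D1-like Drd1, which raises cAMP, and D2-like Drd3, which lowers it, were thus higher in adults at 1 site each, without overlap. The third Up site, at Drd2, overlapped between the groups.

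**Figure D5:**
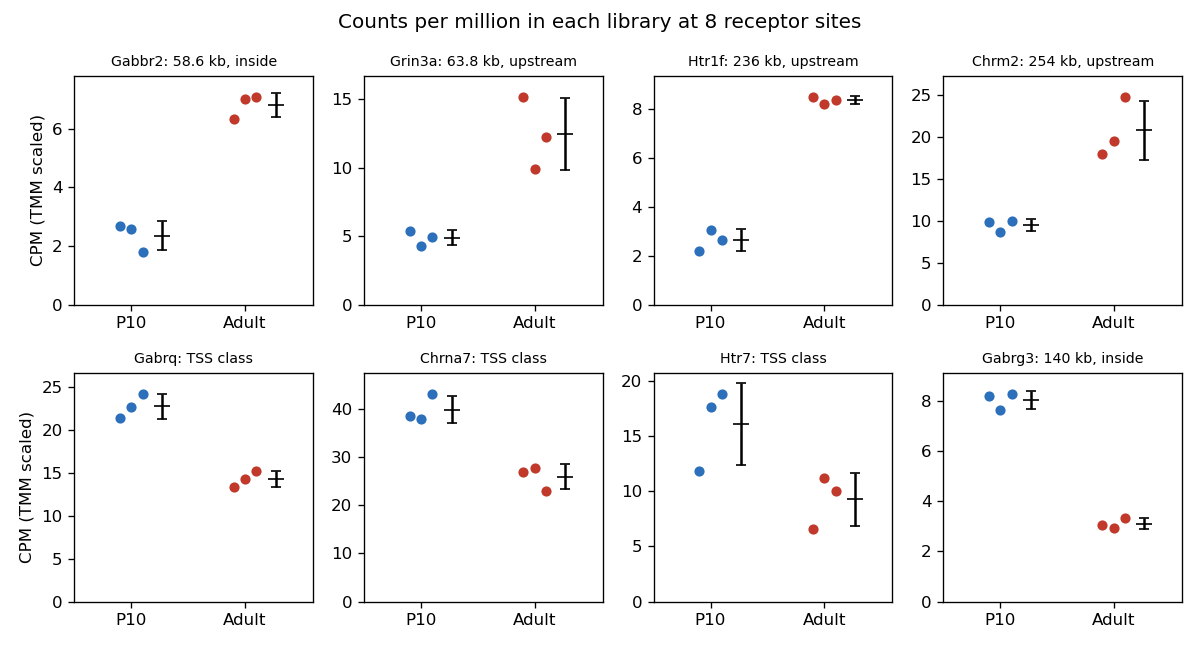
CPM (vertical axes from 0, each panel on its own scale) in each P10 (blue) and adult (red) library at 8 of the receptor sites named in the text, with the mean and SD of the 3 libraries of each age in black. Adult points stand above all P10 points in the upper row (Gabbr2, Grin3a, Htr1f, Chrm2) and below them in the lower row (Gabrq, Chrna7, Htr7, Gabrg3). Sites named for the smallest p in a family had to be without overlap, so that this separation was partly fixed by the choice.

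Counts summed over all sites of a gene gave 1 test per gene. Of the 75 receptor genes 8 were Up and 5 Down, against 10.5% Up and 7.63% Down among all 14776 genes. Grin3a had summed counts of 83.6, 71.6 and 87.7 CPM in adults and 51.0, 57.6 and 62.9 CPM at P10 (log2 fold change 0.50 ± 0.12, adjusted p = 0.0236), and Drd3 25.8, 25.0 and 19.1 CPM and 16.1, 13.9 and 15.8 CPM (log2 fold change 0.61 ± 0.17, adjusted p = 0.0464). Htr1f had 90.7, 101 and 101 CPM and 62.7, 72.3 and 82.5 CPM (log2 fold change 0.43 ± 0.12, adjusted p = 0.0474). Grin3a and Chrm2 (log2 fold change 0.53 ± 0.16, adjusted p = 0.0585) were the 2 genes called in all 6 fits without 1 library. Other Up genes were Grik4 (log2 fold change 0.43 ± 0.14, adjusted p = 0.0874), Gabbr2 (log2 fold change 0.38 ± 0.13, adjusted p = 0.101) and Drd2 (log2 fold change 0.45 ± 0.18, adjusted p = 0.153). The 7 Up genes named here turned below 0 when total reads set the library sizes, and 0 receptor genes were then called Up.

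Among the Down genes on summed counts, Gabrq had 19.9, 24.8 and 26.5 CPM in adults and 29.2, 35.4 and 36.2 CPM at P10 (log2 fold change -0.51 ± 0.16, adjusted p = 0.0674), and Gabre 19.9, 20.5 and 26.5 CPM and 24.4, 34.2 and 40.1 CPM (log2 fold change -0.56 ± 0.18, adjusted p = 0.0769). Both are X-linked. Chrnb1, the β1 subunit of the muscle nicotinic receptor, had 27.6, 27.2 and 22.2 CPM and 43.0, 37.4 and 28.0 CPM (log2 fold change -0.49 ± 0.17, adjusted p = 0.0917), Chrna7 90.9, 97.7 and 85.8 CPM and 96.8, 118 and 129 CPM (log2 fold change -0.32 ± 0.12, adjusted p = 0.132), and Grm6 fell by 0.80 ± 0.29 on the log2 scale (adjusted p = 0.118). None of the 5 passed an FDR of 0.05, and all 5 lost their call without P10 replicate 2. When only sites within 100 kb were summed, 6 genes were Up and 7 Down, and the value of Drd2 turned from 0.45 to -0.06. The shares of all genes called on these sums were not counted. None of the 7 sites of Chrm2 lay within 100 kb, so that its call rested on distant sites alone.

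Genes that make, move or anchor the transmitters and their receptors were counted by lists. Each site was tied to its gene as the nearest gene, some from far away. The examples given were the called sites with the smallest p in each direction. A lack of overlap at them was made likely by this choice and adds no support. Synthesis and breakdown enzymes had 23 Up (10.6%) and 11 Down (5.07%) of 217 sites in 16 of 17 genes, where all sites had 12.3% and 6.63%, with a median log2 fold change of 0.07 against -0.01 over all sites. Examples by smallest p were Ddc, the decarboxylase that makes serotonin and dopamine, with an Up site (11.6, 9.35 and 9.28 CPM against 5.30, 3.57 and 2.80 CPM, log2 fold change 1.36 ± 0.27, adjusted p = 0.00136) and a Down site (0.361, 0.682 and 0.129 CPM against 1.91, 1.43 and 1.53 CPM, log2 fold change -1.98 ± 0.51, adjusted p = 0.0129). Gad1, which makes GABA, had an Up site (33.1, 27 and 24.8 CPM against 16.7, 12.3 and 15.3 CPM, log2 fold change 0.93 ± 0.20, adjusted p = 0.00213), and Bche, which splits choline esters, a Down site (1.72, 3.02 and 1.55 CPM against 6.97, 10.2 and 10.1 CPM, log2 fold change -2.10 ± 0.31, adjusted p = 5.05e-05). The Up site of Ddc lay inside the gene, 12294 bp from the start, and its Down site 36520 bp upstream. The Gad1 site lay downstream at 67573 bp from the start, and the Bche site 51626 bp upstream. None of these 4 overlapped between the ages. Transporters had 18 Up (11.5%) and 14 Down (8.97%) of 156 sites in 18 of 20 genes, with a median of -0.08. The vesicular monoamine carrier Slc18a1 had an Up site (15.5, 14.1 and 12.1 CPM against 3.86, 3.92 and 4.81 CPM, log2 fold change 1.73 ± 0.24, adjusted p = 2.52e-05), and the choline carrier Slc5a7 was Down at its start (2.17, 3.51 and 2.32 CPM against 5.11, 7.06 and 8.88 CPM, log2 fold change -1.39 ± 0.31, adjusted p = 0.00393). Adult and P10 values did not overlap at either, nor at the glutamate carrier Slc1a3 (Up, 22.0, 27.9 and 20.2 CPM against 8.41, 8.77 and 12.2 CPM, log2 fold change 1.26 ± 0.22, adjusted p = 0.000262) and the GABA carrier Slc6a13 (Down, 0.994, 1.17 and 1.42 CPM against 2.0, 3.49 and 3.22 CPM, log2 fold change -1.28 ± 0.39, adjusted p = 0.037). The Slc18a1 site lay downstream at 36667 bp from the start, the Slc1a3 site 803961 bp upstream and the Slc6a13 site 1433 bp upstream.

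Scaffolds and auxiliary subunits had 24 Up (13.9%) and 17 Down (9.83%) of 173 sites in 24 of 28 genes, with a median of -0.04. The GABA-B auxiliary subunit gene Kctd16 had an Up site (15.5, 11.1 and 9.28 CPM against 2.79, 2.50 and 3.22 CPM, log2 fold change 2.08 ± 0.27, adjusted p = 9.85e-06), as had Nsg1, which takes part in AMPA receptor recycling (8.68, 8.47 and 6.32 CPM against 2.60, 2.92 and 2.11 CPM, log2 fold change 1.63 ± 0.29, adjusted p = 0.000356). Down sites stood inside Dlg2, a postsynaptic scaffold (2.35, 2.05 and 3.48 CPM against 7.86, 7.42 and 8.88 CPM, log2 fold change -1.64 ± 0.29, adjusted p = 0.000439), and Homer2, a scaffold of metabotropic glutamate receptors (1.45, 1.27 and 1.29 CPM against 3.90, 4.99 and 3.33 CPM, log2 fold change -1.59 ± 0.36, adjusted p = 0.00396). The Kctd16 site lay downstream at 603789 bp from the start, and the Nsg1 site 22281 bp upstream. Those inside Dlg2 and Homer2 were 123996 bp and 20539 bp from the start. At all 4 the ages were apart, which the choice by smallest p made likely.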

How the data were processed

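Chromatin accessibility was measured by ATAC-seq in whole islets of 6 libraries, 3 per age. The authors aligned reads to Rn5 with BWA 0.7.13, after FastQC 0.11.2, and removed mitochondrial reads and low-quality alignments with SAMtools 1.3. They called sites with MACS2 2.1.1 on libraries joined per age, merged the sites of both ages, and deposited raw counts of Tn5 integrations per site. Removal of duplicates is not given in the sources used here. The deposited fold-change and p-value columns hold the authors' own comparison and were not used.

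Of 101941 entries, 338 repeat a site, and each site was used once. Counts were scaled by TMM and tested with the quasi-likelihood test of edgeR 4.0.16 in R 4.3.3, with age as the only term; the study also used edgeR. The SE is the absolute log2 fold change divided by the square root of F. DESeq2 1.42.0 and limma 3.58.1 were alternatives. On simulated data for adult against P10, 34.5% of 200 sites of 101603 and 91.0% of 200 genes of 14776 changed by 1 on the log2 scale were called, 0 in the wrong direction, and 13 unchanged sites and 41 unchanged genes were called. Only 200 sites were changed there, while 18.9% of all sites were called in the data. The FDR limit was therefore stricter in the simulation, and its shares called do not give the power of the tests reported here. Members, gene lists and tests were chosen with earlier results of these data known. Named sites were, per family and direction, up to 3 called sites with the smallest p whose groups did not overlap, the called TSS-class sites, the promoters of a fixed gene list and the site with the highest mean count. Any other site was chosen after its values were seen. Promoter sequences came from RefSeq (GRCr8). Values of some genes are not reported here by name, though their sites are in all counts.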

Additional observations from a re-analysis of the deposited data

How the results depend on the processing

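No paired analysis was possible because the ages share no replicate numbers. Receptor sites called Up numbered 57, and 34 at an FDR under 0.05, 24 of the 324 within 100 kb (7.41%), 6 with total reads as library sizes and 37 to 56 without 1 library. Those called Down numbered 50, and 16, 29 (8.95%), 380 and 23 to 58 in the same order. The shares called among all sites within 100 kb were not counted. Of the 268 receptor sites with a mean of at least 50 counts, 26 were Down (9.70%, against 6.17% of all such sites). In the TSS class, the 11 Down became 4 at an FDR under 0.05 (8.89%, against 1.87% of all TSS-class sites) and 41 with total reads (91.1%, against 90.2%). They were 7 of 40 without X-linked genes (17.5%), 7 of 34 with a mean of at least 50 counts and 4 to 11 without 1 library. The share Down of all TSS-class sites without X-linked genes, or with at least 50 counts, was not counted. In each fit that left out 1 library, 0 receptor TSS-class sites were Up. The restrictions to X-unlinked genes and to sites of at least 50 counts were chosen after seeing the data. Over all sites, 12504 Up became 7177 at an FDR under 0.05, 1062 with total reads and 7973 to 13232 without 1 library, and 6738 Down became 1945, 61663 and 3285 to 7215, with 10447 Up and 10732 Down under column sums. On summed counts, the 8 Up genes became 3 at an FDR under 0.05, 0 with total reads and 2 to 11 without 1 library, and the 5 Down genes became 0, 61 and 0 to 11, and 8 under column sums. The median over receptor sites was -0.86 with total reads and -0.11 to 0.01 without 1 library.

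With total reads as library sizes, values turned below 0 at Gria3 (chrX:127153618, -0.19), Gabrp (-0.76), Gabbr1 (-0.57), the Gabbr2 promoter (-0.83), Grin3a (chr5:70191188, -0.056), the Drd2 promoter (-0.78) and Glra1 (chr10:40810858, -0.32), and on summed counts at Chrm2 (-0.30), Drd2 (-0.41), Drd3 (-0.21), Gabbr2 (-0.50), Grik4 (-0.44), Grin3a (-0.32) and Htr1f (-0.38). The Gabbr2 and Drd2 promoters were at -0.038 and -0.034 under column sums and at -0.065 and -0.059 with cyclic loess offsets, and summed Drd2 was at -0.057 within 100 kb. Without 1 library, sign changes were seen at sites that were not called: Gria2 (-0.18 to 0.032), Gabrp (-0.029 to 0.39), Gabbr2 (-0.13 to 0.31), Grin1 (-0.27 to 0.16), Drd2 (-0.10 to 0.14), Chrna5 (-0.18 to 0.015) and Chrnb2 (-0.33 to 0.14). The causes were not tested. Of 56 named sites, DESeq2 left the call of 53 as it was and limma voom that of 54. Of the 45 called, 25 were called in all 6 fits that left out 1 library. Sites without a call may still differ.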
